A study of Mus musculus with 31 samples.

Results

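The red cell membrane and enzyme genes Car1, Car2, Aqp1, Slc4a1, Icam4, Rhag, Ermap and Tfrc were followed across 9 sorted populations of mouse bone marrow. The 8 genes were taken by symbol from the array's probe annotation, and each was read by 1 probe that the annotation pairs with that gene alone, among 19938 genes so measured. All 31 arrays carry RNA of cells double-sorted from the bone marrow of C57BL/6 mice, 20000 cells per sample, and the labels call the replicates biological without naming an animal, a pool, a sex or an age. Lineage-negative cells with cKit and Sca1 were divided into long-term stem cells (LT-HSC, Flk2- CD48- CD150+, n = 4), short-term stem cells (ST-HSC, the same without CD150, n = 3), MPP2 (Flk2- CD48+ CD150+, n = 3), MPP3 (Flk2- CD48+ CD150-, n = 3) and MPP4 (Flk2+, n = 5), the last 3 being multipotent progenitors. Common myeloid progenitors (CMP, n = 3) and granulocyte-monocyte progenitors (GMP, n = 4) were lineage-negative and cKit+ CD34+, without and with the Fc gamma receptor. Mac1+ cells with intermediate Gr1 gave the pre-granulocytes (PreGr, n = 3), and those with high Gr1 the granulocytes (Gr, n = 3). The lineage antibodies included Ter119, which marks maturing red cells, and no population was sorted as erythroid.

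Red cells carry carbon dioxide and oxygen with a small set of abundant proteins. Carbonic anhydrases inside the cell convert carbon dioxide to bicarbonate, and the anion exchanger band 3 (Slc4a1) trades that bicarbonate for chloride across a membrane anchored to the spectrin skeleton. Aquaporin 1 passes water, the Rh-associated glycoprotein Rhag forms a complex with the Rh blood group proteins, and Icam4 and Ermap are surface proteins of the immunoglobulin superfamily that carry blood group antigens in humans. Tfrc, the transferrin receptor, takes up iron for heme and is used by every dividing cell. Most of these genes reach high levels only after commitment to the red cell lineage, where the factors Gata1 and Klf1 are known to drive much of the programme.

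The deposited log2 values fall into 5 sets of arrays, found from values that are identical between arrays and not named by the labels. Set medians of the deposited values differ, from 6.19 to 6.22 in LT-HSC 1 to 3 up to 7.78 to 7.83 in the ST-HSC and MPP2 arrays and MPP3 1 and 2. Levels below are log2 values after quantile normalization, which gives every array the same distribution. A gene is said to have risen or fallen where 2 limma fits across all genes both gave a Benjamini-Hochberg adjusted p under 0.05 in the same direction: a set-adjusted fit, with the array set as a block, and a quantile-normalized fit without sets. Changes are those of the set-adjusted fit, ± SE, unless stated. In that fit LT-HSC is represented by LT-HSC 4 alone, and GMP is set against CMP through GMP 4 alone. MPP2 reaches populations outside its own set through the 3 MPP3 arrays, MPP3 3 against MPP3 1 and 2. CMP does so through the MPP4 arrays, MPP4 1 to 3 against MPP4 4 and 5. These are bulk samples, so fewer cells of a type and less RNA per cell cannot be told apart. Across the 10 comparisons the 8 genes gave 80 results, of which 10 were called higher and 5 lower. By comparison, 0.160 to 8.12 percent of all genes were called higher and 0.386 to 11.2 percent lower.

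Of 10 defining markers of late erythroid cells 4 were analysed here, namely Alas2, Epb42, Rhd and Kel, and their mean per array was 6.71 to 6.93 in MPP2, 6.58 to 6.71 in CMP, 6.54 to 6.64 in ST-HSC and 6.20 to 6.53 in MPP4. All MPP2 means lie above all ST-HSC means and all CMP means above all MPP4 means, and 1 of the 4, Kel, rose in both comparisons, by 0.97 ± 0.21 and 1.14 ± 0.21. Epb42 overlapped between CMP arrays, at 5.67 to 5.93, and MPP4 arrays, at 5.67 to 6.41. No detection call was used, so whether these 4 markers lie above background was not tested. The median change of the 4 was 0.06 in MPP2 against ST-HSC, with 0.07 over all genes. In CMP against MPP4 it was 0.18, with 0.02 over all genes. PreGr arrays had means of 6.43 to 6.78, so the range of CMP is not particular to it. The part of late erythroid cells in the results was not tested. Of the globin list 3 of 10 genes were measured, the embryonic globins Hba-x, Hbb-bh1 and Hbb-y, with 0 called in each of the 10 comparisons by the limma fits and 0 at an unadjusted p under 0.05 in both.

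**Figure D1:**
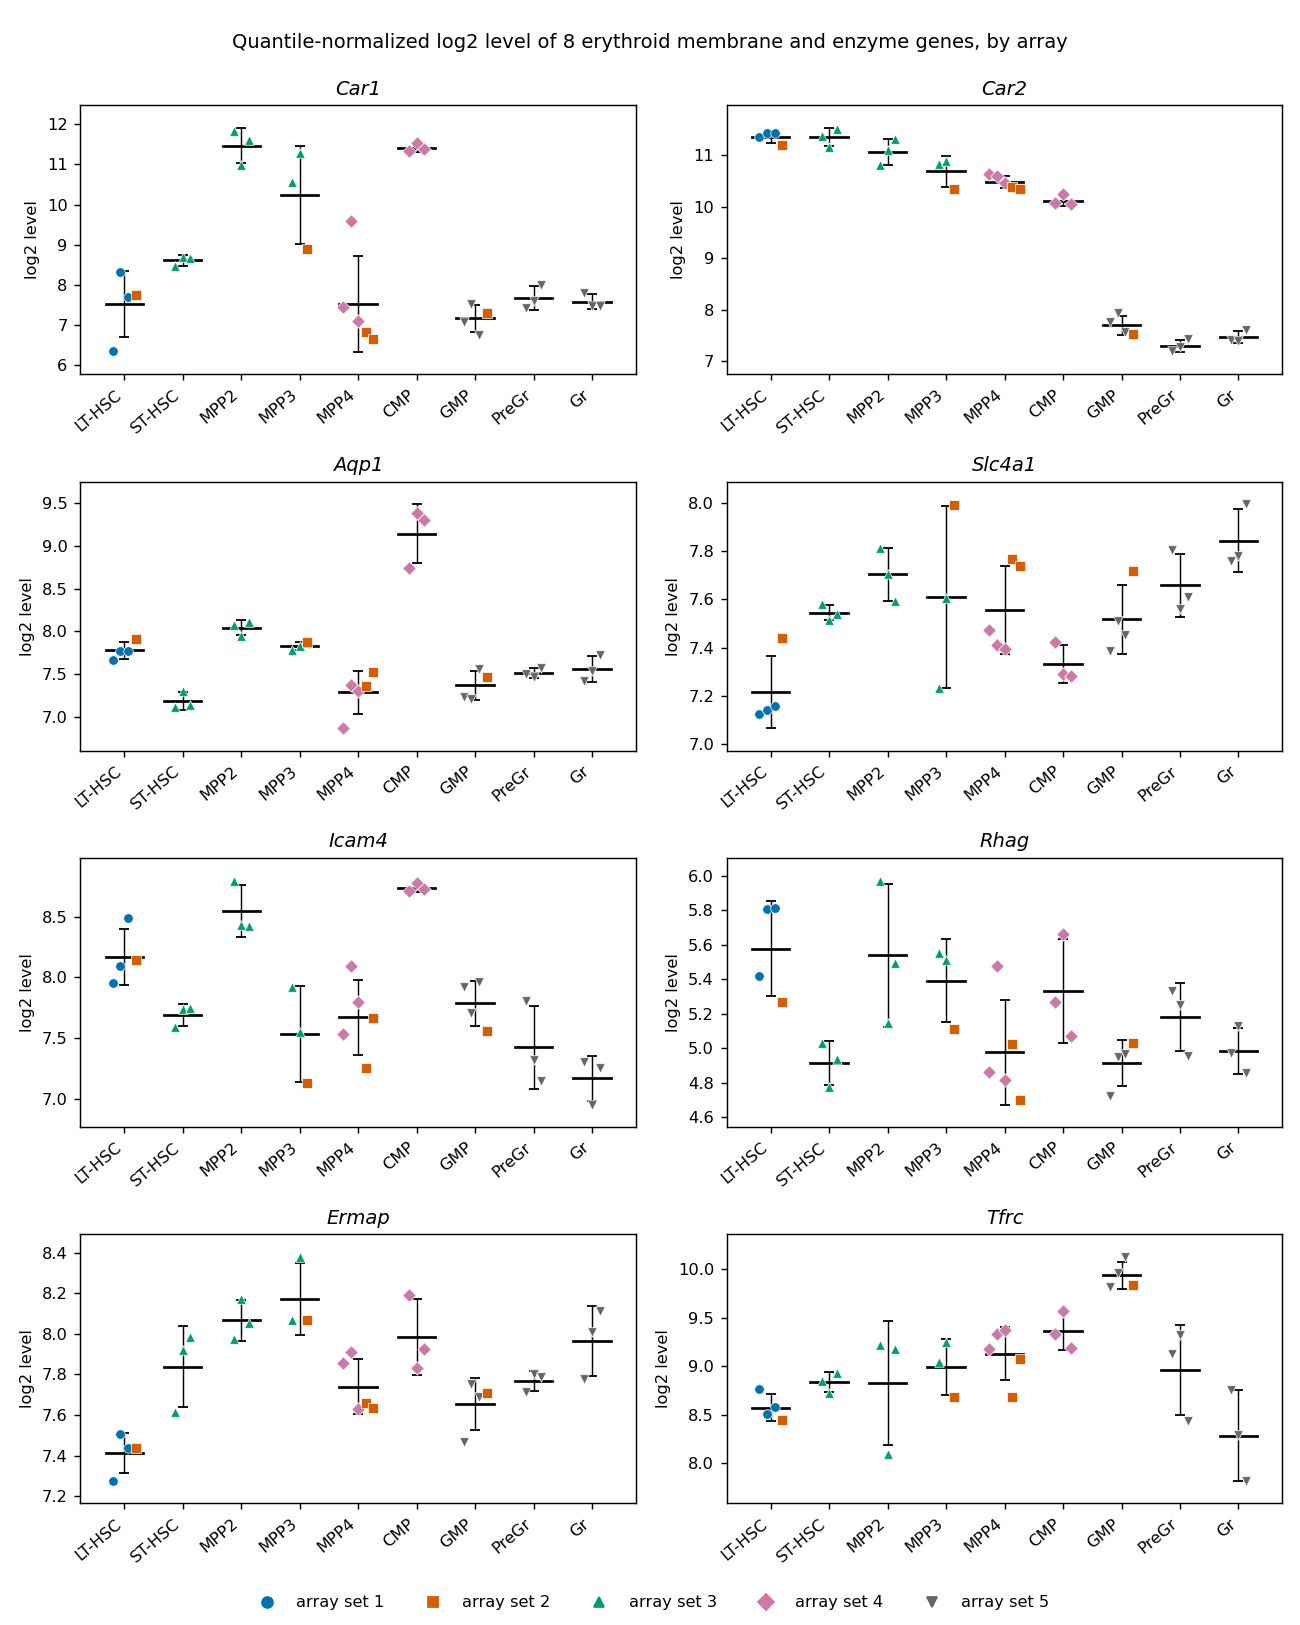
Quantile-normalized log2 level of each of the 8 genes in all 31 arrays, by population, with the mean and SD of each population and a marker shape for each array set. Car1 stands at 10.98 or more in all MPP2 and CMP arrays, Car2 falls off between CMP and GMP, Aqp1 peaks in CMP at 8.74 to 9.38, and Slc4a1, Rhag and Ermap span 0.63 to 0.76 between their highest and lowest population means.

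Car1, a cytosolic carbonic anhydrase of the red cell, was the most variable of the 8, with 4.30 log2 units between its highest and lowest population means. Its level was 11.83, 10.98 and 11.60 in MPP2, 11.34, 11.54 and 11.38 in CMP, and 10.56, 11.28 and 8.90 in MPP3. It was 8.46, 8.71 and 8.68 in ST-HSC, and 6.35, 8.31, 7.71 and 7.74 in LT-HSC. MPP2 and CMP overlap each other, MPP3 overlaps MPP2 and lies below CMP, and all ST-HSC and LT-HSC arrays lie below all MPP2 and CMP arrays. In MPP4 the values were 7.44, 9.59, 7.10, 6.84 and 6.65, so that 1 of the 5 arrays stands above every LT-HSC and ST-HSC array. GMP, PreGr and Gr arrays lay between 6.76 and 8.01.

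Against ST-HSC, with which it shares an array set, MPP2 had Car1 higher by 2.85 ± 0.46 (adjusted p = 0.000147), a 7.23-fold difference. Against MPP4, CMP had it higher by 3.38 ± 0.46 (adjusted p = 5.64e-05). Fits restricted to the arrays of 1 set gave 2.71 ± 0.24 and 3.45 ± 0.54 for the same comparisons. In MPP2 against MPP3 neither fit called Car1, with a set-adjusted change of 0.55 ± 0.51 (adjusted p = 0.650). Some other contrasts of Car1 depended on the fit. In MPP2 against LT-HSC the set-adjusted change was 1.70 ± 0.94 (adjusted p = 0.246, 95% interval -0.24 to 3.65), and the quantile-normalized fit gave 3.94 ± 0.51 (adjusted p = 2.64e-06). The groups do not overlap there, but the set-adjusted value rests on LT-HSC 4 and on the step between MPP3 3, at 8.90, and MPP3 1 and 2, at 10.56 and 11.28. Without the MPP4 array at 9.59, Car1 passed both fits in GMP against CMP (-3.59, adjusted p = 0.00306), whereas with it the change was -2.82 ± 0.82 (adjusted p = 0.0995). In MPP2 against MPP4 the change was 2.70 ± 0.85 (adjusted p = 0.0896), and without that array it was 2.70 and passed both fits (adjusted p = 0.0260). The set-adjusted estimate there gives that array no weight, so the 2.70 stayed while the standard error and adjusted p could change. The same removal brought CMP against LT-HSC to 3.16 (adjusted p = 0.00443), against 2.38 ± 0.82 (adjusted p = 0.0917) with all arrays. In CMP against MPP2 the interval of the Car1 difference, -1.32 to 2.68, leaves room for a change of either sign.

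Car2, the more widely expressed carbonic anhydrase, lies near Car1 on chromosome 3 (GRCm38.p6, Car1 at 14766214 to 14808365 and Car2 at 14886269 to 14900770). It was high in every stem and multipotent population, with 11.35, 11.43, 11.44 and 11.19 in LT-HSC and 11.38, 11.16 and 11.51 in ST-HSC. MPP2 arrays had 10.81, 11.09 and 11.31, and CMP arrays had 10.07, 10.24 and 10.05. In GMP it was 7.76, 7.94, 7.57 and 7.52, in PreGr 7.20, 7.28 and 7.43, and in Gr 7.42, 7.40 and 7.61. The largest step between neighbouring populations in its order was the 2.42 between CMP and GMP, and every array from LT-HSC to CMP, at 10.05 or more, lies above every array of GMP, PreGr and Gr, at 7.94 or less.

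All 3 calls for Car2 were falls. In GMP against CMP it fell by 2.41 ± 0.21 (adjusted p = 3.09e-07), and in CMP against LT-HSC it fell by 1.26 ± 0.21 (adjusted p = 0.000804). In PreGr against GMP it fell by 0.45 ± 0.12 (adjusted p = 0.00643), a call that ended when any of GMP 1, GMP 2, PreGr 1 or PreGr 2 was left out, and that did not pass both fits on the deposited values (-0.47). In CMP against MPP4 the groups do not overlap and the change was -0.44 ± 0.12, with adjusted p = 0.0218 in the set-adjusted and 0.0958 in the quantile-normalized fit. In MPP2 against ST-HSC, where Car1 rose, the Car2 difference was -0.28 ± 0.12 (adjusted p = 0.126, 95% interval -0.52 to -0.04). Over the 31 arrays, centred within their sets, Pearson's r was -0.17 for Car1 and Car2 and 0.85 for Car1 and Aqp1. Without the centring these were 0.41 and 0.69, so that the sign for Car1 and Car2 turns with it. These are descriptions of arrays that share populations and sets. Of 14 other carbonic anhydrase genes measured, 2 fell in PreGr against GMP, where 8.98 percent of all genes were called lower, with changes of -0.56 ± 0.12 for Car9 (adjusted p = 0.00191) and -0.55 ± 0.09 for Car12 (adjusted p = 0.000150), and no other call was made among them.

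Aqp1, the water channel of the red cell, was highest in CMP. Its values were 8.74, 9.38 and 9.29 in CMP and 8.08, 7.95 and 8.10 in MPP2. They were 6.87, 7.37, 7.31, 7.36 and 7.53 in MPP4, 7.12, 7.31 and 7.14 in ST-HSC, and 7.67, 7.77, 7.77 and 7.91 in LT-HSC. CMP arrays lie above those of every other population, and MPP2 arrays above all but CMP. GMP arrays were at 7.24, 7.21, 7.56 and 7.46, and PreGr and Gr arrays at 7.42 to 7.73.

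With 5 calls in 10 comparisons, Aqp1 had the most among the 8 genes. It rose in CMP against LT-HSC by 1.49 ± 0.25 (adjusted p = 0.00102) and against MPP4 by 1.95 ± 0.14 (adjusted p = 1.11e-08), and fell by 1.94 ± 0.25 in GMP against CMP (adjusted p = 0.000114). In MPP2 it rose against ST-HSC by 0.85 ± 0.14 (adjusted p = 0.000210), and on the deposited values the change was 0.72 and did not pass both fits. It was also higher in CMP than in MPP2, by 1.28 ± 0.30 (adjusted p = 0.0224), where the adjusted p was 0.0582 without MPP3 1, 0.0503 without MPP3 2 and 0.0577 without MPP4 5. No other of the 8 genes passed that last comparison.

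Slc4a1, the anion exchanger band 3, was called in 1 comparison. Its population means span 0.63, and its highest mean, 7.84 ± 0.13 (SD, n = 3), was in granulocytes. MPP2 arrays had 7.81, 7.71 and 7.59, against 7.12, 7.14, 7.16 and 7.44 in LT-HSC, and these groups do not overlap. The gene rose there by 0.84 ± 0.19 (adjusted p = 0.0118), and by 0.49 in the quantile-normalized fit (adjusted p = 0.00580). The set-adjusted value rests on LT-HSC 4, the LT-HSC array at 7.44. It also rests on the step between MPP3 3, at 7.99, and MPP3 1 and 2, at 7.23 and 7.60. CMP arrays, at 7.42, 7.29 and 7.28, lie below those of MPP2, and the difference, -0.62 ± 0.19 (adjusted p = 0.0886), did not pass. Of 14 measured relatives among anion exchangers, aquaporins and Rh family genes, Slc4a3 rose in MPP2 against LT-HSC by 0.54 ± 0.15 (adjusted p = 0.0333). Aqp9, an aquaporin that also passes glycerol, fell by 1.79 ± 0.33 in GMP against CMP (adjusted p = 0.00439) and rose in Gr against PreGr by 2.20 ± 0.18 (adjusted p = 6.45e-09).

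Icam4, an adhesion molecule of erythroid cells, shared its upper populations with Car1 and Aqp1 over a smaller range, 1.57 between the highest and lowest means. It had 8.71, 8.78 and 8.73 in CMP, and 7.54, 8.10, 7.79, 7.25 and 7.66 in MPP4. It had 8.80, 8.43 and 8.42 in MPP2, against 7.92, 7.55 and 7.13 in MPP3, 7.59, 7.74 and 7.75 in ST-HSC and 7.95, 8.09, 8.49 and 8.14 in LT-HSC. MPP2 lies above all MPP3 and ST-HSC arrays but overlaps LT-HSC through the array at 8.49. Icam4 rose in MPP2 against ST-HSC by 0.86 ± 0.17 (adjusted p = 0.00175) and in CMP against MPP4 by 0.93 ± 0.17 (adjusted p = 0.00170). On the deposited values the first was 0.71 and did not pass both fits. In MPP2 against MPP3 it rose by 0.81 ± 0.19 (adjusted p = 0.0392), and in a fit of the 8 arrays of the set that holds MPP2, ST-HSC and MPP3 1 and 2 the change was 0.73 ± 0.14 (adjusted p = 0.164). That call was also lost without MPP3 2 (adjusted p = 0.328) and without each of 8 other single arrays. In GMP against CMP the groups do not overlap, with 7.92, 7.71, 7.96 and 7.56 in GMP, and the set-adjusted change was -0.83 ± 0.31 (adjusted p = 0.246).

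Rhag and Ermap were called in 0 of the 10 comparisons by the limma fits. Rhag was the single gene of the 8 below the filter on dim genes used as an alternative, with all 31 arrays between 4.70 and 5.97. Its MPP2 arrays, at 5.97, 5.15 and 5.49, lie above the ST-HSC arrays at 5.03, 4.78 and 4.94, and the difference was 0.62 ± 0.19 (adjusted p = 0.0373, 95% interval 0.23 to 1.02), with adjusted p = 0.0592 in the quantile-normalized fit. Leaving out the MPP2 array at 5.15 brought it past both fits (0.82, adjusted p = 0.00902). Ermap spanned 7.27 to 8.38 over all arrays, with 7.97, 8.17 and 8.05 in MPP2, 8.07, 8.38 and 8.07 in MPP3 and 7.27, 7.51, 7.43 and 7.44 in LT-HSC. Its MPP2 and LT-HSC arrays do not overlap, and the set-adjusted change between them was 0.47 ± 0.25 (adjusted p = 0.226, 95% interval -0.05 to 0.99). At an unadjusted p under 0.05 in both fits Rhag had 1 comparison and Ermap 0, and the quantile-normalized fit alone called Rhag in 1 and Ermap in 3.

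The promoter windows of 4 of the 8 genes are printed to set a pair that rose in MPP2 against ST-HSC and in CMP against MPP4 (Aqp1 and Icam4) beside the pair called nowhere (Rhag and Ermap). Each is the 250 bases before the start site in the RefSeq promoter table of GRCm38.p6, 5′ to 3′ on the gene's own strand. The table held 5 of the 8 genes. Car1, which also rose in both comparisons, Car2 and Slc4a1 had no entry. Capitals mark GATA letters (AGATAA or TGATAA, and likewise AGATAG or TGATAG) and the letters CCNCNCCCN of a KLF-type CACC box, searched on both strands.
Aqp1, chr6:55336049-55336298, plus strand: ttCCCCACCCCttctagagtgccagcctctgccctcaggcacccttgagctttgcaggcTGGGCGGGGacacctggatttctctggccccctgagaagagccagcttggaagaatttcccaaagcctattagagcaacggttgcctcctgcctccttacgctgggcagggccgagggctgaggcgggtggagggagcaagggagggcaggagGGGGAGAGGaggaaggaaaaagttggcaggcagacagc
Icam4, chr9:21029182-21029431, plus strand: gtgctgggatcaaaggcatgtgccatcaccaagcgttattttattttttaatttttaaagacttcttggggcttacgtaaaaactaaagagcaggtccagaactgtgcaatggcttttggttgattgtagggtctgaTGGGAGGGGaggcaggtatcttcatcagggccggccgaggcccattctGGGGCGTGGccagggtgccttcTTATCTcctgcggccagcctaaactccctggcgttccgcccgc
Rhag, chr17:40810899-40811148, plus strand: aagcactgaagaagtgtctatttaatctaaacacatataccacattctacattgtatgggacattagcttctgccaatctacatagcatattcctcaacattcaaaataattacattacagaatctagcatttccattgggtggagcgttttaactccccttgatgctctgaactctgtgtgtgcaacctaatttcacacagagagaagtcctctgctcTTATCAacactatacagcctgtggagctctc
Ermap, chr4:119189996-119190245, minus strand: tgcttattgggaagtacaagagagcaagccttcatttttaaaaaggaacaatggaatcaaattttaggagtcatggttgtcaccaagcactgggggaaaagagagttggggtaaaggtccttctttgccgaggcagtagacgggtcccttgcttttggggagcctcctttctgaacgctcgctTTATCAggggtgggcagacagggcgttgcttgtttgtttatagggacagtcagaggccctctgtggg
GATA letters occur 1 time each in Icam4 (positions -43 to -38 from the start site), Rhag (-31 to -26) and Ermap (-67 to -62), and 0 times in Aqp1. The KLF letters occur 3 times in Aqp1 and 2 times in Icam4, and 0 times in Rhag and Ermap, and no match overlaps another in these windows. Tfrc, which rose in none of the 10 comparisons and is not printed, has 3 and 2 matches of the KLF letters, some overlapping, in its 2 windows and 0 of the GATA letters. Of 32851 mouse promoter windows of this length, 26.5 percent hold the GATA letters and 45.8 percent the KLF letters, so each is common. The KLF letters occur 2 or more times in 27.2 percent. The 4 printed genes were picked by their calls, and whether the letters bear on the calls was not tested. A match is a stretch of letters and not a measured binding site.

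Tfrc had its maximum in GMP. Its values were 9.82, 9.97, 10.13 and 9.84 in GMP, 9.33, 9.57 and 9.19 in CMP, 9.22, 8.09 and 9.18 in MPP2 and 8.77, 8.51, 8.58 and 8.44 in LT-HSC. They were 8.75, 8.29 and 7.82 in Gr and 9.13, 9.33 and 8.44 in PreGr. All 4 GMP arrays lie above every other array of the series, while MPP2 arrays spread over more than 1 log2 unit. Tfrc fell by 1.01 ± 0.25 in PreGr against GMP (adjusted p = 0.00467), its single call, and the change did not pass both fits without PreGr 3 (-0.74) or on the deposited values (-1.15). The GMP and CMP groups do not overlap, but the change was 0.89 ± 0.45 (adjusted p = 0.433). In Gr against PreGr it was -0.68 ± 0.25, with adjusted p = 0.0452 in the set-adjusted and 0.0560 in the quantile-normalized fit, and both fits called it without PreGr 3 (-0.94) or without Gr 1 (-0.91).

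**Figure D2:**
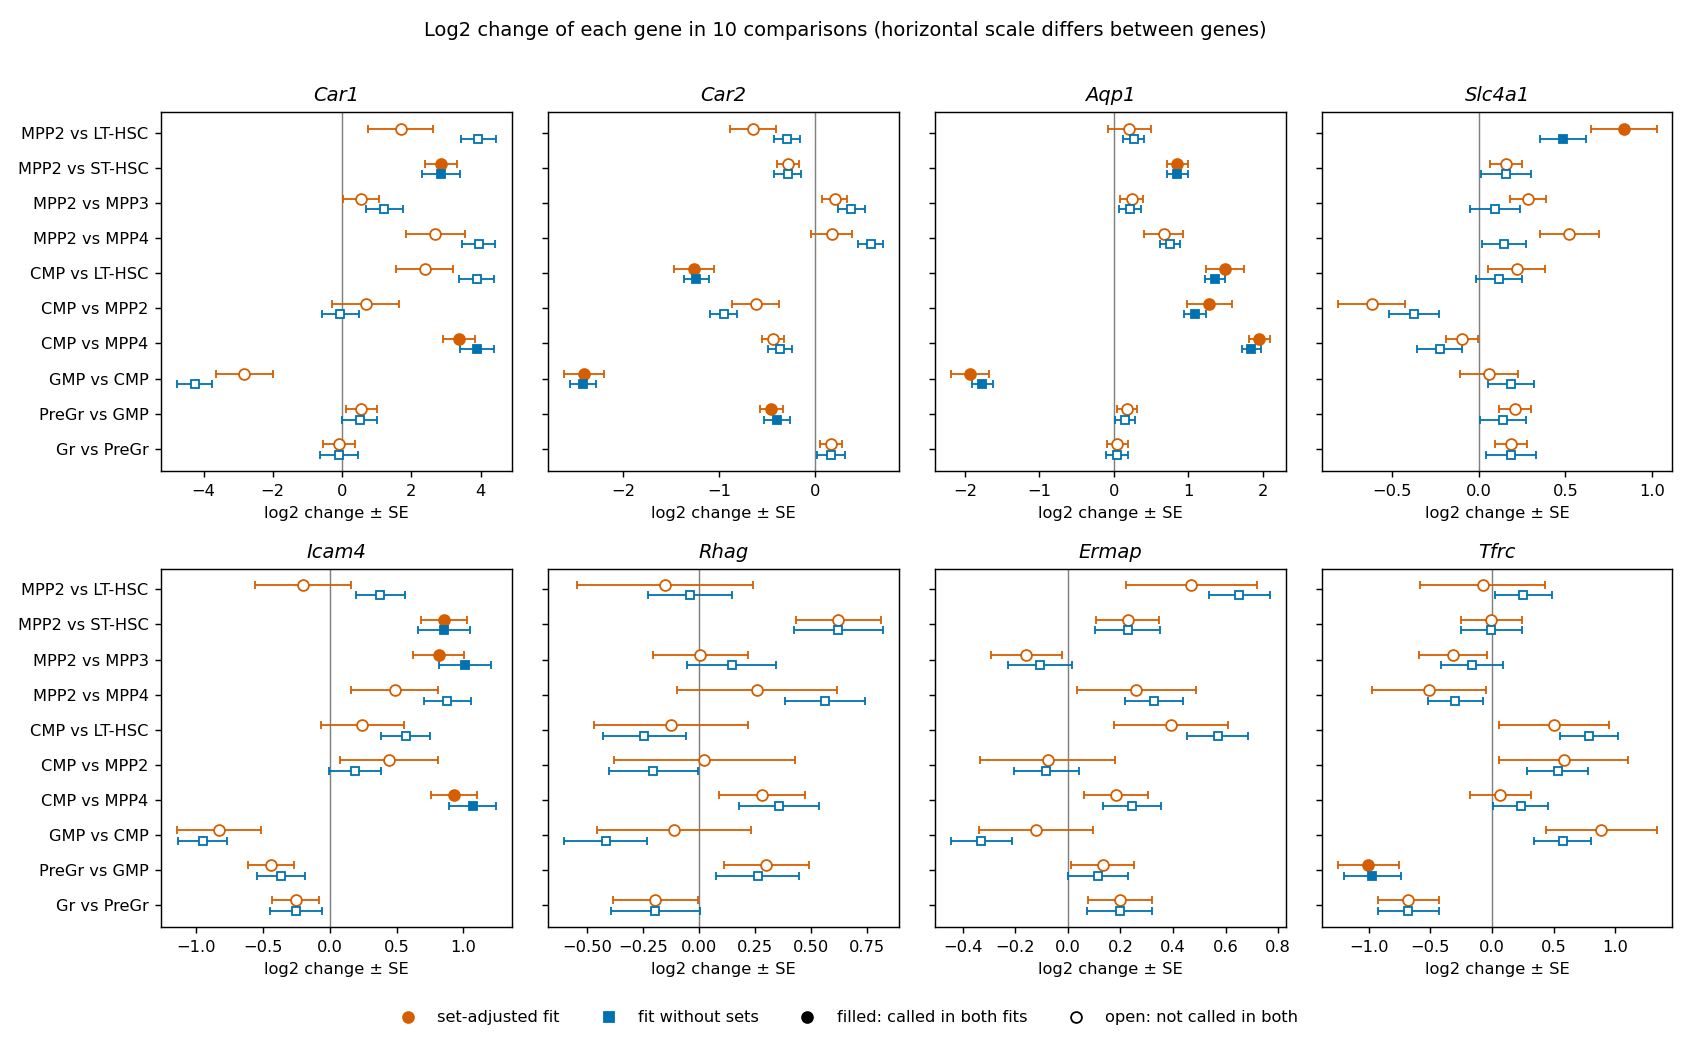
Log2 change ± SE of the 8 genes in the 10 comparisons, with circles for the set-adjusted fit and squares for the quantile-normalized fit without sets, filled where both fits called the gene. Car1, Aqp1 and Icam4 are filled on the positive side in MPP2 against ST-HSC and in CMP against MPP4, Car2 and Aqp1 on the negative side in GMP against CMP, and the largest distance between the fits is that of Car1 in MPP2 against LT-HSC.

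Read by comparison, the genes that moved differ. MPP2 against ST-HSC had 3 of the 8 higher (Car1, Aqp1 and Icam4), where 2.80 percent of all genes tested were called higher and 3.79 percent lower. CMP against MPP4 had the same 3 higher, with 2.58 percent of all genes called higher and 1.46 percent lower. The median change of the 8 was 0.42 in MPP2 against ST-HSC, with 0.07 over all genes, and 0.23 in CMP against MPP4, with 0.02 over all genes. GMP against CMP had 2 lower (Car2 and Aqp1), with 0.517 percent of all genes called lower and 0.527 percent higher, and the medians were -0.48 over the 8 and 0.02 over all genes. CMP against MPP4 and GMP against CMP both use CMP arrays, and the MPP2 comparisons share the MPP2 arrays.

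In the comparisons with LT-HSC, MPP2 had 1 of the 8 higher (Slc4a1), with 2.40 percent of all genes called higher and 2.05 percent lower. CMP had 1 higher (Aqp1) and 1 lower (Car2), with 1.73 percent and 1.72 percent of all genes called higher and lower. MPP2 against MPP3 had 1 higher (Icam4), with 0.160 percent of all genes called higher and 0.502 percent lower. CMP against MPP2 had 1 higher (Aqp1), with 0.808 percent of all genes called higher and 0.386 percent lower. PreGr against GMP had 2 lower (Car2 and Tfrc), with 8.98 percent of all genes called lower and 6.63 percent higher. In MPP2 against MPP4 limma called 0 of the 8 in both fits, where 0.226 percent of all genes were called higher and 0.777 percent lower. There 2 of the 8 had an unadjusted p under 0.05 in both fits, and the quantile-normalized fit alone called 6. In Gr against PreGr 0 were called, where 8.12 percent of all genes were called higher and 11.2 percent lower, with 1 at an unadjusted p under 0.05 in both fits. Median changes of the 8, with those over all genes in brackets, were 0.06 (0.16) in MPP2 against LT-HSC and 0.32 (0.08) in CMP against LT-HSC. They were 0.22 (0.06) in MPP2 against MPP3, 0.37 (0.11) in MPP2 against MPP4 and 0.15 (0.01) in PreGr against GMP. In Gr against PreGr they were -0.02 (0.02). In CMP against MPP2 they were 0.23 (-0.07), or -0.07 (0.01) in the quantile-normalized fit.

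Of 14 measured regulators of the red cell programme, 4 rose in each of the comparisons in which Car1, Aqp1 and Icam4 rose. MPP2 against ST-HSC had 4 higher and 1 lower. Gata1 was higher by 1.01 ± 0.17 (adjusted p = 0.000238), Klf1 by 0.75 ± 0.11 (adjusted p = 7.63e-05), Mybl2 by 0.83 and Zfpm1, a Gata1 partner, by 0.55, and Lmo2 fell by 0.45. CMP against MPP4 also had 4 higher, namely Gata1 by 1.20 ± 0.17 (adjusted p = 9.11e-05), Klf1 by 0.98 ± 0.11 (adjusted p = 7.37e-06), Gfi1b by 0.64 and Zfpm1 by 0.59. In GMP against CMP 6 of the 14 fell, with changes of -1.32 ± 0.20 for Klf1 (adjusted p = 0.000836), -1.30 ± 0.23 for Ldb1 and -1.33 ± 0.22 for Bcl11a among them. In MPP2 against LT-HSC 3 rose, Klf1 by 0.84 ± 0.23 (adjusted p = 0.0317), Zfpm1 by 0.95 and Tal1 by 0.65. In CMP against LT-HSC 3 rose, Mybl2 by 1.34 ± 0.34 (adjusted p = 0.0241), Klf1 by 1.21 ± 0.20 (adjusted p = 0.00100) and Gata1 by 1.15 ± 0.30 (adjusted p = 0.0262). In MPP2 against MPP4 2 rose, Zfpm1 by 0.83 ± 0.21 (adjusted p = 0.0443) and Tal1 by 0.77 ± 0.15 (adjusted p = 0.0104). In PreGr against GMP E2f2 rose by 0.93 ± 0.13, while Ldb1 and Mybl2 fell, with changes of -0.73 ± 0.13 and -0.99 ± 0.19. Tal1, a stem cell and erythroid factor, was lower in CMP than in MPP2, with a change of -0.87 ± 0.17 (adjusted p = 0.0119).

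Other components of the red cell membrane moved in part with these genes. Slc14a1, the urea transporter of the red cell and carrier of the Kidd blood group in humans, rose in MPP2 against ST-HSC by 0.82 ± 0.16 (adjusted p = 0.000981) and in CMP against MPP4 by 1.92 ± 0.16 (adjusted p = 4.80e-08). In GMP against CMP it fell by 3.78 ± 0.28 (adjusted p = 2.87e-08), more than Car2 or Aqp1. It was also higher in CMP than in MPP2, by 2.25 ± 0.33 (adjusted p = 0.000686), but by 0.84 in the quantile-normalized fit (adjusted p = 0.0106). Kel, the Kell blood group protein, rose in MPP2 against ST-HSC by 0.97 ± 0.21 (adjusted p = 0.00327) and in CMP against MPP4 by 1.14 ± 0.21 (adjusted p = 0.00154). These were the 2 of 14 measured membrane skeleton and blood group genes that rose in each of these comparisons, and no gene of that list fell in either. Slc14a1 also rose in MPP2 against MPP3 by 1.06 ± 0.17 (adjusted p = 0.00161) and in CMP against LT-HSC by 1.56 ± 0.28 (adjusted p = 0.00175). For CMP against LT-HSC the quantile-normalized fit gave 0.83. Add2, a subunit of the skeletal protein adducin, rose against LT-HSC by 0.61 ± 0.15 in MPP2 (adjusted p = 0.0201) and by 0.64 ± 0.13 in CMP (adjusted p = 0.00571).

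In CMP against MPP4 4 of 11 measured heme genes rose: Tspo2, an erythroid translocator protein, by 0.91 ± 0.17 (adjusted p = 0.00165), the pathway enzymes Urod by 0.79 ± 0.20 (adjusted p = 0.0183) and Alad by 0.58 ± 0.15 (adjusted p = 0.0166), and the porphyrin transporter Abcb6 by 0.50 ± 0.13 (adjusted p = 0.0212). In MPP2 against ST-HSC 0 of the 11 were called by limma, with 2 at an unadjusted p under 0.05 in both fits. Fech, which puts iron into heme, fell by 1.08 ± 0.25 in MPP2 against LT-HSC (adjusted p = 0.0143). In CMP against LT-HSC Fech fell by 0.88 ± 0.22 (adjusted p = 0.0198) and Alad rose by 1.10 ± 0.26 (adjusted p = 0.0150). Of the LT-HSC arrays the Alad value uses LT-HSC 4 alone, at 7.92, while LT-HSC 1 to 3 stood at 9.01 to 9.47. CMP arrays stood at 9.50 to 9.73. The quantile-normalized fit gave -0.51 for Fech and 0.74 for Alad in CMP against LT-HSC. Of the iron genes, Trf, which encodes transferrin, rose there by 1.11 ± 0.26 (adjusted p = 0.0152) and the ferrireductase Steap3 by 0.90 ± 0.22 (adjusted p = 0.0180). Of the 14 measured iron genes, Tfr2, the second transferrin receptor, rose in MPP2 against ST-HSC by 0.49 ± 0.13 (adjusted p = 0.0179) and in CMP against MPP4 by 0.66 ± 0.13 (adjusted p = 0.00324). The mitochondrial iron importer Slc25a37 fell by 0.82 ± 0.17 in MPP2 against ST-HSC (adjusted p = 0.00232).

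Some markers of other lineages rose in the comparisons in which the 3 genes rose. Megakaryocyte and platelet markers, 6 measured, had array means of 8.43 to 8.80 in MPP2 and 7.80 to 8.10 in ST-HSC, and 3 of the 6 rose (Itga2b, Gp9 and Gp5). Their means were 8.53 to 8.55 in CMP and 6.96 to 7.35 in MPP4, and 4 of the 6 rose. Eosinophil, basophil and mast cell markers, 8 measured, had array means of 7.13 to 7.86 in MPP2 and 6.50 to 6.56 in ST-HSC, and 3 of the 8 rose. Those means were 7.72 to 7.82 in CMP and 6.45 to 6.95 in MPP4, and 5 of the 8 rose. B and plasma cell markers, 7 measured, had array means of 7.04 to 8.01 in MPP2 and 6.61 to 6.72 in ST-HSC, with Jchain higher by 3.15 ± 0.84 (adjusted p = 0.0159). T and NK markers, 8 measured, had 6.82 to 6.94 in MPP2 and 6.42 to 6.58 in ST-HSC, with Nkg7 higher by 1.84 ± 0.34 (adjusted p = 0.000687). Of 9 monocyte and macrophage markers, with array means of 6.86 to 7.05 in CMP and 6.48 to 6.64 in MPP4, Csf1r and Ly86 rose, by 1.20 ± 0.11 and 2.34 ± 0.31. Of 8 endothelial and stromal markers Emcn fell in both comparisons, with changes of -2.22 ± 0.23 in MPP2 against ST-HSC and -1.34 ± 0.23 in CMP against MPP4.

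Beside the falls of Car2 and Aqp1 in GMP against CMP, megakaryocyte and platelet markers had array means of 6.96 to 7.16 in GMP and 8.53 to 8.55 in CMP, and 2 of the 6 fell, with changes of -4.08 ± 0.86 for Pf4 and -1.08 ± 0.23 for Itga2b. Monocyte and macrophage markers had 7.60 to 7.76 in GMP and 6.86 to 7.05 in CMP, with Adgre1 higher by 1.01 ± 0.20. Eosinophil, basophil and mast cell markers had 8.24 to 8.36 in GMP and 7.72 to 7.82 in CMP, with Prg2 higher by 3.08 ± 0.77 (adjusted p = 0.0455). Beside the falls of Car2 and Tfrc in PreGr against GMP, B and plasma cell markers had array means of 7.88 to 8.32 in PreGr and 6.66 to 6.89 in GMP, and T and NK markers 8.24 to 8.43 in PreGr and 6.92 to 7.14 in GMP. The part of these cells in the results was not tested.

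Genes whose course over the 31 arrays is most like each of the 8 were ranked among 12189 genes by Pearson's r after centring each array set, as a description without a test, since arrays share populations and sets. For Car1 the nearest were Gata1 (r = 0.84), the platelet integrin gene Itga2b (r = 0.82) and Apoe (r = 0.81). Aqp1 came closest to Itga2b (r = 0.87), Ces2g (r = 0.87) and Mfsd2b, a sphingosine phosphate exporter of red cells and platelets (r = 0.83). Car2 had a different company, with Lat (r = 0.89), Myct1 (r = 0.88) and Ctla2b (r = 0.88). Much of this lies in 1 array, GMP 4, with set-centred values of -2.44 for Car2, -1.30 for Lat, -2.03 for Myct1 and -1.89 for Ctla2b. In GMP 1 to 3 Car2 was centred to 0.06 to 0.43, since their set holds only GMP, PreGr and Gr arrays. Tfrc lay nearest to Mrpl35 (r = 0.88), which encodes a mitochondrial ribosomal protein. The nearest genes were Pou3f1 for Slc4a1 (r = 0.87), Eif2d for Icam4 (r = 0.80), A830031A19Rik for Ermap (r = 0.82) and Prrx2 for Rhag (r = 0.71).

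**Figure D3:**
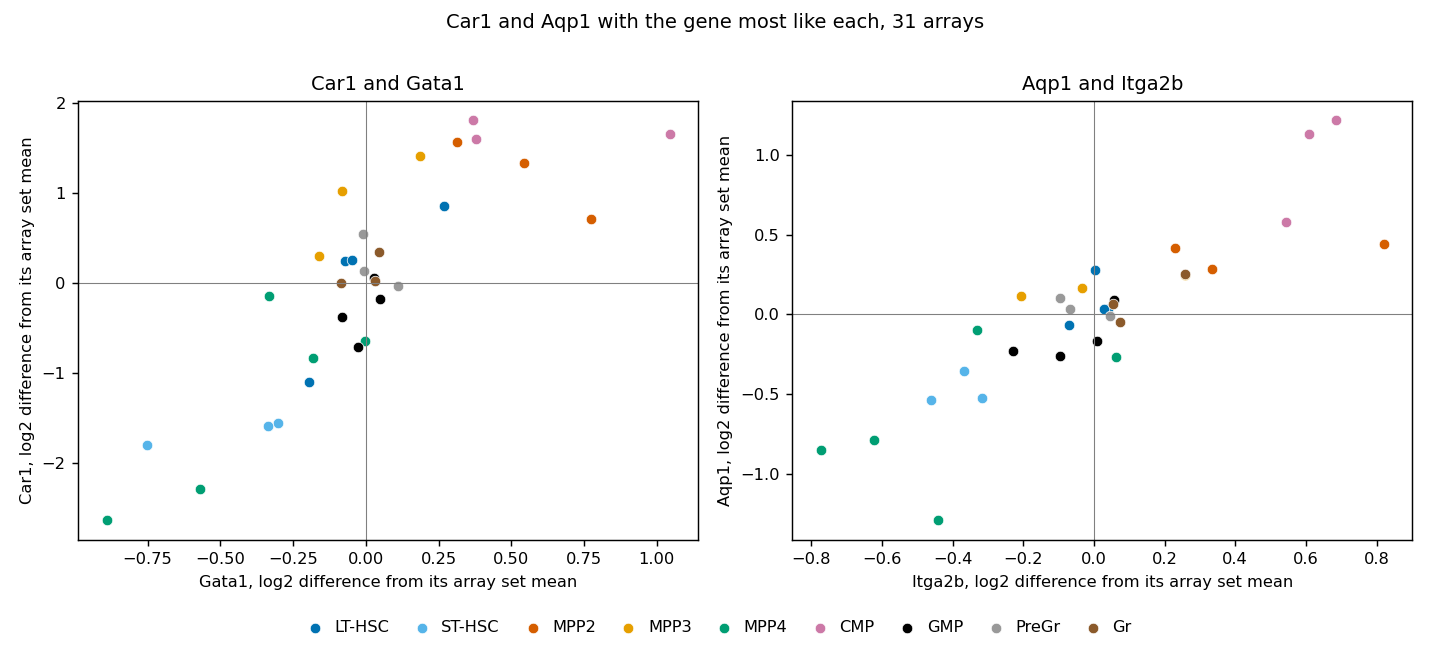
Set-centred log2 levels of Car1 against Gata1 and of Aqp1 against Itga2b in the 31 arrays, 1 point per array, coloured by population. MPP2 and CMP arrays lie toward the upper right in both panels, where Pearson's r is 0.84 and 0.87.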

How the data were processed

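RNA of 31 sorted samples was hybridised to Affymetrix whole-transcript arrays, and the deposited values are log2 expression values made by the authors with RMA, per the submitters' processing notes, whose version is not given in the sources used here. They range from 1.39 to 14.29. The table holds 35557 probes, 21789 of them annotated to a single gene, 1621 to several genes and 12147 to no gene. The brightest probe stood for each of 999 genes with more than 1, which left 19938 genes. For 21698 probes the gene matched the RefSeq reference (GRCm38.p6).

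Arrays that share 2 or more identical values were linked into 5 sets. Values were quantile-normalized and fitted with limma 3.58.1 in R 4.3.3, once blocking on the array set (18 residual degrees of freedom) and once without it (22). Calls needed Benjamini-Hochberg adjusted p-values under 0.05 in both fits, in the same direction, from two-sided moderated tests over all genes. Blocking takes the shift of a gene between sets to be equal for all populations. The 8 genes could be named in every comparison, and of each list up to 3 called genes with the largest change, or all where 5 or fewer were called. Members, lists and comparisons were chosen with earlier results of these data known. Alternatives were other normalizations, each fit alone, a filter on dim genes (highest population mean at or above the median of all values), the mean over probes, array weights, a replicate block, single arrays left out and, added after seeing the data, fits within 1 set. Same-numbered arrays were not shown to be pairs: in none of the comparisons did every pair's residual correlation exceed 0.1. The number of arrays limits precision, and where replicates share animals p-values cover only the spread between samples. The plots were made in Python 3.11.15 (matplotlib 3.10.9). Some genes of the lists are not reported here.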

Additional observations from a re-analysis of the deposited data

Results flagged for a closer look

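Car1 stood at 9.59 (quantile-normalized log2 level) in MPP4 2, far from the other 4 MPP4 arrays, at 6.65 to 7.44. On that array Gata1 was at 7.61, against 7.05 to 7.70 in the other MPP4 arrays. Slc4a1 stood at 7.44 in LT-HSC 4, with the other 3 LT-HSC arrays at 7.12 to 7.16. LT-HSC 4 is the array on which the set-adjusted comparisons with LT-HSC rest, and it belongs to another array set than LT-HSC 1 to 3. In all 24 groups of 4 or 5 arrays were examined, 1 for each gene and population, and 2 had such an array, where chance gives about 1 in 20. The causes were not tested.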

How the results depend on the processing

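None of the 15 called results changed its sign under an alternative that was run. The number of the 8 called was 1 in MPP2 against LT-HSC, 3 in MPP2 against ST-HSC, 1 in MPP2 against MPP3, 0 in MPP2 against MPP4, 2 in CMP against LT-HSC, 1 in CMP against MPP2, 3 in CMP against MPP4, 2 in GMP against CMP, 2 in PreGr against GMP and 0 in Gr against PreGr. With median centring it was 2 in MPP2 against LT-HSC, 0 in MPP2 against MPP3, 1 in PreGr against GMP and 1 in Gr against PreGr. On the deposited values it was 1 in MPP2 against ST-HSC (Car1), 0 in MPP2 against MPP3, 2 in CMP against MPP2 and 0 in PreGr against GMP, where the changes of the lost calls were 0.72 for Aqp1 and 0.71 for Icam4 in MPP2 against ST-HSC, 0.69 for Icam4 in MPP2 against MPP3, and -0.47 for Car2 and -1.15 for Tfrc in PreGr against GMP. Without the set block, in the quantile-normalized fit alone, it was 3 in MPP2 against LT-HSC, 6 in MPP2 against MPP4, 6 in CMP against LT-HSC, 2 in CMP against MPP2 and 4 in GMP against CMP, while up to 36.1 percent of all genes were called. Gr against PreGr had 1, Tfrc, in the set-adjusted fit alone, with the filter on dim genes and with array weights. Icam4 in MPP2 against MPP3 was lost, leaving 0, with array weights (adjusted p = 0.109), within 1 set (adjusted p = 0.164) and with the replicate number as a block (0.81, adjusted p = 0.0510). That block brought Rhag in MPP2 against ST-HSC past both fits (0.62, adjusted p = 0.0403) and changed no other call. With single arrays left out the count ranged from 1 to 2 in MPP2 against LT-HSC, 3 to 4 in MPP2 against ST-HSC, 0 to 1 in MPP2 against MPP3, 0 to 1 in MPP2 against MPP4, 2 to 3 in CMP against LT-HSC, 0 to 1 in CMP against MPP2, 2 to 3 in GMP against CMP, 1 to 2 in PreGr against GMP and 0 to 1 in Gr against PreGr, and stayed at 3 in CMP against MPP4. The cause of these changes was not tested. Contrasts that need LT-HSC 4, MPP3 3 or GMP 4 could not be fitted without that array, nor could the replicate block for MPP2 against LT-HSC, MPP2 against MPP4 and CMP against MPP2. No detection call was used, so whether any of the 8 genes lies above background was not tested. Rhag fell below the filter on dim genes, and the population means of Slc4a1 ran only from 7.22 to 7.84.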

Other observations

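Iron genes changed at the granulocyte end of the series. Of the 8 red cell genes, Car2 and Tfrc passed in PreGr against GMP, and none passed in Gr against PreGr. In Gr against PreGr 5 of 14 iron uptake and handling genes rose and 3 fell, while 8.12 percent and 11.2 percent of all genes were called higher and lower. Fbxl5, an iron-sensing part of a ubiquitin ligase, stood at 11.14 ± 0.26 in Gr and 9.19 ± 0.05 in PreGr (log2 level, mean ± SD, n = 3 each) and rose by 1.94 ± 0.15 (SE, adjusted p = 1.37e-09). Slc40a1, the iron exporter ferroportin, stood at 9.75 ± 0.10 in Gr and 8.06 ± 0.62 in PreGr and rose by 1.68 ± 0.26 (adjusted p = 2.57e-05). Pcbp1, an iron chaperone and RNA-binding protein, fell by 0.70 ± 0.10 (adjusted p = 1.72e-05). In PreGr against GMP, where Tfrc fell, 3 of the 14 rose, Slc40a1 by 1.02 ± 0.26 (adjusted p = 0.00562), Fbxl5 by 0.96 ± 0.15 (adjusted p = 3.58e-05) and the ferritin light chain gene Ftl1 by 0.72 ± 0.12 (adjusted p = 9.80e-05). The iron transporter Slc11a2 fell by 0.58 ± 0.15 there (adjusted p = 0.00643).

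The heme enzyme Cpox fell by 1.29 ± 0.15 in Gr against PreGr (adjusted p = 6.73e-07), with 6.94 to 6.99 in Gr arrays and 7.93 to 8.42 in PreGr arrays. Epor, the erythropoietin receptor gene, rose there by 0.37 ± 0.10 (adjusted p = 0.00798), and Lmo2 fell by 0.55 ± 0.10 (adjusted p = 0.000106).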
